A study of Xenopus laevis with 3 samples.

Results

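The comparison described here is that of anterior with posterior endoderm in Xenopus laevis embryos at stage 39, on 2 spotted cDNA arrays called A and B. It is 1 of the 3 deposited samples, the others being the same comparison at stages 30 and 46, so the series holds 6 arrays. The endoderm was dissected by hand from embryos for which the labels name no strain, allele or treatment. Anterior endoderm later gives the lung, oesophagus, stomach, duodenum, pancreas, liver and gallbladder, and posterior endoderm gives the intestine. Anterior cDNA was always labelled with Cy5 and posterior cDNA with Cy3. The dyes were never exchanged, so an effect of the dye and one of the region cannot be told apart in a ratio at 1 stage. Nothing in the labels tells if arrays A and B used different dissections, so errors and p-values measure the spread between hybridisations, which may be technical.

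All values are log2 ratios of anterior over posterior signal, so that 1 is a 2-fold higher anterior signal and -1 a 2-fold lower one. A gene is given by its annotated name, which is the cut-short protein match in the scanner files. Of 3085 such names on the array, 2504 had a probe that could be tested at stage 39, and a name has the value of its brightest tested probe. Names of near-identical genes, among them the paired gene copies of this species, were not told apart. A cut-short name can also hold probes of different subunits or genes. In the tadpole the gut tube is patterned along its length by transcription factors, with SOX2 known for the foregut and caudal and posterior Hox factors for the hindgut. The liver, which buds from the foregut, makes glucose, plasma proteins and complement. The RNA came from whole dissected tissue, so fewer cells of a type and less RNA per cell cannot be told apart.

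Spots were found on both stage 39 arrays for 16098 of 21504 positions. The median spot on array A had an intensity of 949 in the anterior and 1135 in the posterior channel, and that on array B 805 and 975. Between 52.7% and 60.2% of the spots were well above background per channel, meaning over 2 background SDs above it. Having only 2 arrays limits the precision. The log2 ratios of arrays A and B correlated across tested probes with r of 0.947, and 89.7% of probes had the same sign on both. The typical spread of a probe between the arrays was an SD of 0.11 on the log2 scale. Probes are not independent replicates.

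**Figure D1:**
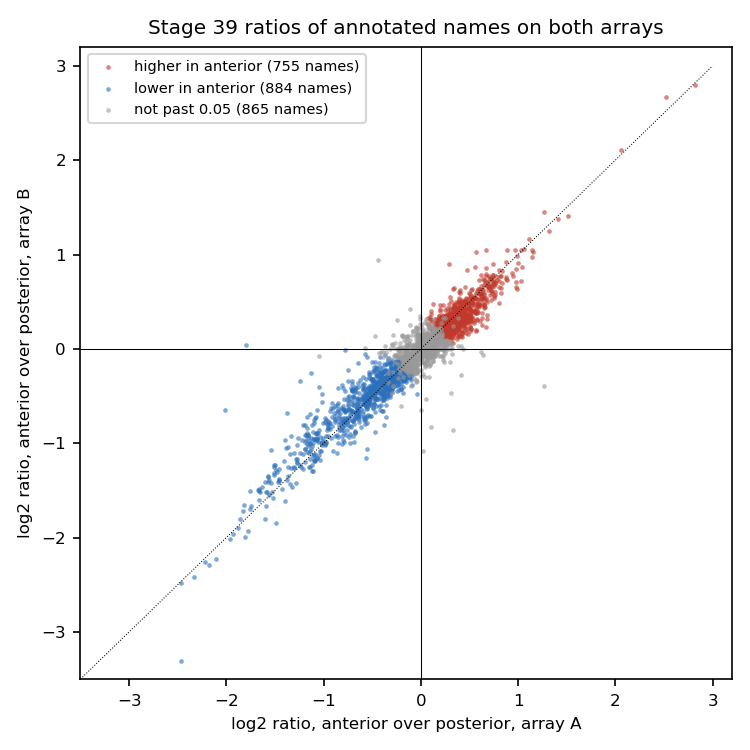
Log2 ratio of anterior over posterior signal on stage 39 array A (x axis) and array B (y axis), with 1 point for each of the 2504 annotated names. Red points are the 755 names past the threshold as higher in anterior endoderm, blue the 884 as lower, and grey those not past it, and the tail on the lower side is the longer one.

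Of 13932 tested probes, 8828 passed an adjusted p of 0.05 (63.4%), with 4398 higher in anterior endoderm (31.6%) and 4430 lower (31.8%). Over 2-fold, 69 probes were higher (0.495%) and 575 lower (4.13%). Of the 2504 names, 755 were higher (30.2%) and 884 lower (35.3%), and the median name had -0.02. Past 0.5 on the log2 scale there were 159 names higher and 421 lower. Past 2-fold there were 14 higher (0.559%) and 139 lower (5.55%), and past 1.5 on the log2 scale 3 higher and 33 lower. Names with several probes allowed a check within the array. Among the 1161 names with 2 or more tested probes, all probes passed as higher for 135 and as lower for 175. Another 232 of these 1161 names had probes past the threshold in both directions.

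The counts of every group below are to be read against all tested names, of which 30.2% were higher and 35.3% lower. Enzymes that make and release glucose had the lowest median of the 36 groups of names. Of 4 names, 3 were lower anteriorly and 1 stayed below the threshold, with a group median of -1.79 against -0.02 for all names. Glucose-6-phosphatase, which releases free glucose from the liver, gave -2.34 on array A and -2.42 on array B (mean -2.38 ± 0.095, limma adjusted p = 1.8e-06). Here and below, the value after ± is the SE from the moderated fit to all 6 arrays. It also draws on the spread at stages 30 and 46 and is not that of the 2 stage 39 arrays alone. Its normalised intensity was 1111 in anterior and 5608 in posterior endoderm on array A, and 1820 and 9712 on array B. Of its 5 probes 4 were lower, with a range of -2.38 to -0.08 and a mean of -1.35. Phosphoenolpyruvate carboxykinase, which draws carbon towards glucose, gave -1.93 and -1.96 and fructose-1,6-bisphosphatase, which acts later in that path, gave -1.67 and -1.60. For both enzymes the anterior signal was well above background on 1 of the 2 arrays. The carboxykinase values are those of its brightest probe: of its 3 probes, 1 passed the other way at 0.89, and their mean was -0.83. Pyruvate carboxylase, which starts the path, had 0.04 by its brightest probe and did not pass. Of its 3 probes 2 were lower, the lowest at -0.54, and their mean was -0.25. The enzymes of glycolysis, which run the path downwards, lay closer to 0. Of 9 names 5 were lower and 0 higher (median -0.21), with lactate dehydrogenase at -0.65 and -0.15 on the arrays and a glyceraldehyde 3-phosphate dehydrogenase at -0.32. Triose-phosphate isomerase was lowest at -1.03, but its arrays gave -1.38 and -0.68.

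Enzymes of amino acid, nitrogen and creatine metabolism were lower for 9 of 17 names and higher for 1 (median -0.30). The lowest value belonged to a name cut to "glycine am", whose identity goes no further. It gave -2.47 and -2.48, with all 5 probes lower (adjusted p = 5.1e-07). This was 5.55-fold lower by the brightest probe, whose posterior spot had 3% saturated pixels on array A and 4% on array B. The probe with no saturated pixel had -2.33. Guanidinoacetate N-methyltransferase, which makes creatine, gave -2.22 and -2.26 with 4 of 4 probes lower, and a creatine kinase name, cut short at its type, gave -1.75 and -1.67. Histidine ammonia-lyase, the first enzyme of histidine breakdown, had -1.20 and hepatic arginase, the last enzyme of the urea cycle, had -1.01. Serine dehydratase was the name past the threshold the other way (0.20), and its 5 probes ran from -1.01 to 0.26, with 3 higher and 2 lower.

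Names of fatty acid, ketone body and sterol metabolism went both ways, with 7 of 17 lower, 2 higher and a median of -0.12. Farnesyl pyrophosphate synthetase of sterol synthesis was lower (-1.60 and -1.41), as was hydroxyacid oxidase 2 (-1.02 and -0.99). Succinyl-CoA:3-ketoacid-CoA transferase, which lets cells use ketone bodies, was higher, with 1.14 and 0.98 and 2 of 2 probes, although each region was well above background on only 1 array. Bile salt-dependent lipase, a pancreatic enzyme, was higher too (0.60 and 0.48).

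Complement proteins and other secreted liver products did not share 1 direction. Among complement and innate lectins, 5 of 11 names were lower, 2 higher and 4 not past the threshold (median -0.27). Complement C3, on which all complement pathways meet, gave -1.97 and -2.01 (mean -1.99 ± 0.061, adjusted p = 6.5e-07), with all 7 probes lower. This spot was 3.97-fold lower, and in the posterior channel 16% of its pixels were saturated on each array. The 2 C3 probes with no saturated pixel on either array, which were dimmer, had -0.85 and -0.79. The C3b/C4b inactivator, a protease that shuts complement off, had -1.39 with 5 of 5 probes, complement C9 of the membrane attack complex -1.17 with 4 of 4, ficolin 2 -1.20 with 2 of 2 and factor B -0.82. Pentraxin, a soluble pattern receptor, was higher (0.67 and 0.85) with 1 of its 3 probes past the threshold the other way.

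Of the plasma proteins outside complement more names were higher than lower by their brightest probe. Of 13 names of clotting proteins, protease inhibitors and carriers, 7 were higher, 3 lower and 3 not past the threshold, with a median of 0.36. That median was 0.14 with the mean over a name's probes and 0.04 in the authors' deposited ratios. The authors' ratios of all probes had a median of 0.80 before the log, so they lay lower as a whole. The 7 hold alpha-2-macroglobulin under 2 annotations. They also hold riboflavin-binding protein, at least 1.30-fold higher by its brightest probe, although 3 of its 4 probes were lower (mean -0.51). The inter-alpha-trypsin inhibitor heavy chain gave 1.15 and 1.05 (adjusted p = 6.6e-06), with intensities of 1547 and 698 in anterior and posterior endoderm on array A and 2025 and 981 on array B. Alpha-2-macroglobulin, a broad protease inhibitor, gave 0.67 and 1.05, with 4 of 4 probes higher. The iron carriers serotransferrin (0.47, 2 of 2 probes) and transferrin (0.40) and fibrinogen of the clot (0.36, 2 of 3 probes, 1 lower) were higher by less. The B chain of coagulation factor XIII, the carrier of the clot-linking enzyme, went the other way with -1.46 and -1.40. Proteinase alpha1 inhibitor III, a protease inhibitor of rat plasma whose name the word list did not take, also had a low ratio (-1.76 and -1.70, 2 of 2 probes). Another name outside the word list, cut to "proteinase alpha1 inhibi", had -1.35.

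Of 4 apolipoproteins and lipid carriers 3 were lower and 1 higher (median -0.90). Apolipoprotein E gave -1.23 and -1.25, with 4 of 4 probes lower, and apolipoprotein C-I gave -1.14 and -1.17. All 3 ferritin names, for proteins that store iron, were lower, from -1.47 for the lower subunit to -0.30 for the heavy chain, whose 7 probes were all lower. When each array was only centred on its median, without loess, 2 of the 3 ferritins were lower (median -0.35 against -0.67).

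**Figure D2:**
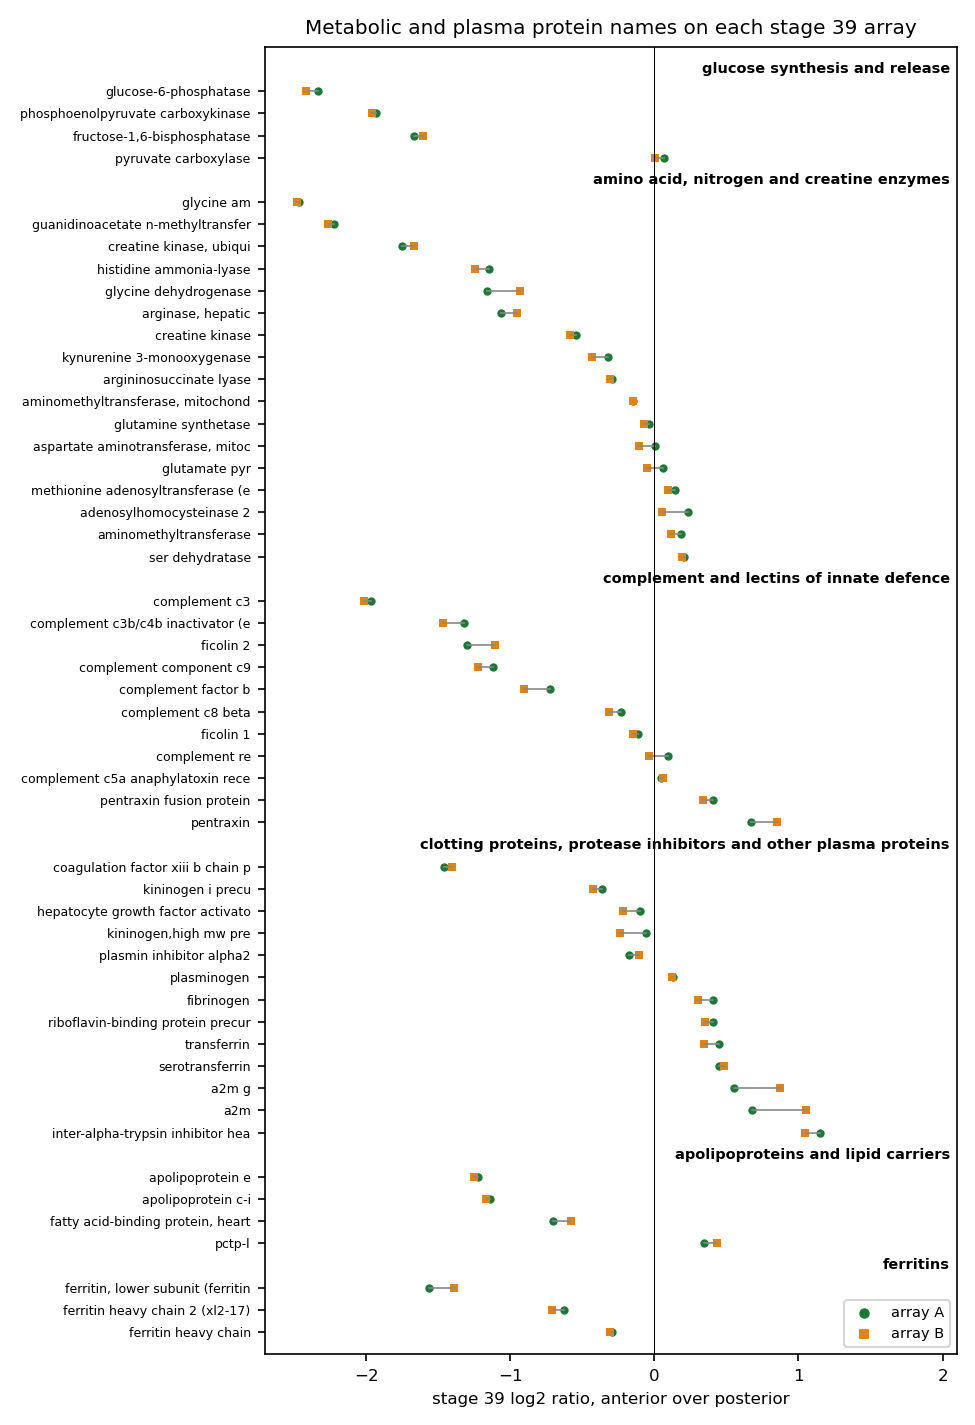
Log2 ratio of anterior over posterior signal at stage 39 for each annotated name, with array A as green circles and array B as orange squares. The groups are glucose synthesis, amino acid, nitrogen and creatine enzymes, complement, clotting and other plasma proteins, apolipoproteins, and ferritins. Complement C3, whose posterior spot was partly saturated, and glucose-6-phosphatase lie near -2 on both arrays, whereas 7 of the 13 clotting and other plasma names were higher in anterior endoderm.

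Hox, caudal and other homeobox factors set position along the body axis, and 18 of 35 names were lower, 7 higher and 10 not past the threshold in anterior endoderm (median -0.21). The 7 names of Hox groups 9 to 13 and caudal all passed as lower, with a median of -0.88, while 3 of 4 names of Hox groups 1 to 5 were higher and 0 lower (median 0.43). Both sublists were drawn after the values had been seen, 2 of the 7 names are annotations of HoxB9, and Hox4e was left out of them because its name does not give its group. XlHbox4 (0.10), HoxA7 (-0.05) and HoxB8 (-0.24) were in neither sublist and did not pass the threshold. HoxA10 gave -1.40 and -1.61 (adjusted p = 4.2e-06), with the anterior signal well above background on 1 of 2 arrays. HoxB9 was at least 2.21-fold lower, with the anterior signal not well above background on either array. HoxA11 (-0.88) and the caudal factors Xcad-1 (-0.99 and -1.02) and Xcad-3 (at least 1.81-fold) had lower anterior signals too. HoxB4 (0.74 and 0.69), HoxB3 (0.63) and the Hox partner Meis1 (0.79 and 0.73, 3 of 4 probes, 1 lower) were higher. Hox4e had -1.49 and -1.85, with each region above background on 1 array. HoxD9, counted among the 7, stayed near background in both regions and has no fold. With both channels required to be well above background on both arrays, 2 of the 7 remained and both were lower, and of the whole group 19 names remained with 6 higher, 7 lower and a median of -0.05.

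SOX, GATA, COUP, HNF and forkhead factors, many of them regulators of endodermal organs, were higher for 4 of 12 names and lower for 2 (median 0.07). SOX-2 gave 2.81 and 2.80, with normalised intensities of 3900 (anterior) and 554 (posterior) on array A and 4120 and 592 on array B (adjusted p = 9.4e-06). The posterior signal was above background on 1 array. Its 5 probes ran from 0.01 to 2.81, 4 of them higher, so the size rests on the probe. The nuclear receptor COUP-TF2 gave 1.11 and 1.17, GATA-3 gave 0.70 and 0.67 and GATA-6B, a regulator of endoderm, 0.53 and 0.54 with 4 of 4 probes higher. A forkhead-related name was at least 1.48-fold lower. Hairy2b, a repressor downstream of Notch, had 0.91 with 2 of 2 probes, and under the name Xhairy 2b another 2 probes had 0.55 and 0.63. A name cut to "ets transcr" had 1.46, with all 5 probes higher and a range of 0.23 to 1.53.

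Of 5 names of the early endoderm 3 were lower at this stage and 1 was higher. The smallest difference of the 3 was that of Mixer, at least 1.04-fold lower. Its anterior signal was not well above background on either array, and its posterior signal was on 1. Endodermin gave -1.58 and -1.52 with 2 of 2 probes lower, and its intensities were 5098 and 15242 on array A and 4103 and 11745 on array B. VegT, the maternal T-box factor that starts endoderm formation, gave -1.10 and -1.12. GATA-6B was the higher name. Cerberus, a secreted antagonist of the early anterior endoderm, had -0.01 and did not pass.

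Of 54 secreted signals, receptors and antagonists 22 were higher, 14 lower and 18 not past the threshold (median 0.05). Patched-2, a Hedgehog receptor, was higher with 0.89 and 0.74 and 3 of 3 probes. Ephrin type-B receptor 3 had 0.72 and an FGF receptor 0.41. The names lower by most were netrin-1, a guidance cue (-1.36 and -1.04, with 1 of 2 probes past the threshold the other way), a name cut to "frizzled-re" (-1.12 and -1.03) and the BMP antagonist chordin (-1.03 and -1.08, 3 of 4 probes lower and 1 higher). The last 2 had an anterior signal above background on 1 array. BMP-7 had -0.48. Smoothened stayed near background in both regions and has no fold.

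Digestive enzymes and brush border proteins differed little by their brightest probes. Bile salt-dependent lipase, described above, was counted with the fatty acid names and not here. Of 13 names 2 were higher, 4 lower and 7 not past the threshold (median -0.10). A pancreatic lipase-related protein was at least 1.52-fold lower, and a mucin 4 name was higher (0.30). A name cut to "igg fc bind" had 0.14 by its brightest probe and did not pass, but 3 of its 4 probes were lower (mean -0.58). Villin, which bundles actin in the brush border, had -0.12 and did not pass, while a second spelling of its name had probes at 0.21 and -0.54.

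Pumps and transporters showed small and mixed differences with a few exceptions. Of 15 ion pumps and channels 4 were higher and 6 lower, with a median of 0.03 that changed sign to -0.02 with median centring. The H,K-ATPase, the acid pump known from stomach, had an anterior signal at least 2.31-fold lower, with all 6 probes lower and the anterior signal not well above background. Of 7 vacuolar proton pump names 5 were lower and 1 higher (median -0.37). Of 5 carbonic anhydrases 4 were lower and 0 higher (median -0.31), with carbonic anhydrase XIV at least 3.42-fold lower. Of 14 solute carriers 5 were lower and 2 higher (median -0.11), with monocarboxylate transporter 7 at -0.75 (4 of 4 probes) and zinc transporter 2 at 0.59.

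Keratins and desmosome proteins were grouped with names of other cell junctions and of epithelial membrane proteins. Of these 30 names 13 were lower and 1 was higher (median -0.13). Periplakin gave -2.46 and -3.31, the lowest of the name values described here (-2.89 ± 0.18, adjusted p = 2.6e-05), and 2 of its 3 probes were lower while the third had -0.03. The 47 kDa type I keratin, known from epidermis, had -1.38 and keratin 12 had -1.10 with its anterior signal above background on 1 array. The epithelial glycoprotein antigen was the higher name (1.05 and 0.87). Annexins, which bind membranes in the presence of calcium, split by type. Annexin II type 2 gave -2.18 and -2.29 with 4 of 4 probes lower and annexin II type 1 -1.88 and -1.90, while annexin I gave 1.03 and 1.05 with each region above background on 1 array. Of 9 annexin and galectin names 4 were lower and 3 higher (median -0.19).

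Tubulins and cilia proteins were lower for 10 of 15 names and higher for 3, with a median of -0.44. Tubulin alpha-2 gave -1.77 and -1.93 with 6 of 6 probes lower, and the ciliary protein tektin a mean of -1.01, whereas tubulin beta-4 gave 0.72 and 0.74. Collagens and matrix proteins were lower for 19 of 34 names and higher for 8 (median -0.20). Fibronectin, which cells adhere to, had -1.12 and thrombospondin 4 -0.99. Syndecan-4 (0.57), a cell-surface proteoglycan, and a type IV collagen of basement membranes (0.56, 3 probes) were higher.

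Genes of tissues that a dissection could carry also differed. Of 34 muscle contractile and muscle regulatory names 20 were lower in anterior endoderm and 6 higher (median -0.23). Fast skeletal troponin I gave -1.47 and -1.41, the muscle determination factor Myf-5 -1.48 and -1.31 with 1 of 2 probes lower, and a name cut to "titin gene pr" -0.62 with 11 of 11 probes lower. The name titin, the giant spring of the sarcomere, had -0.23 with 5 of 6 probes lower. Slow myosin heavy chain 3 was higher (0.76 and 0.57). In the muscle marker list 9 of 17 names were lower and 3 higher. The summed normalised intensity of that list was 39358 (array A) and 47430 (array B) in anterior and 46175 and 54884 in posterior endoderm. Of 6 epidermal markers 5 were lower and 0 higher, with summed intensities of 8960 and 7778 in anterior and 11795 and 10176 in posterior endoderm. No marker of either list was below the background limit in both regions on both arrays, and the part of these tissues in the ratios was not tested.

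Among the other marker lists, those of notochord and cartilage and of neural tissue were more even by count. The summed neural intensity was nonetheless lower in anterior endoderm, by the weight of 1 bright name. Of 6 notochord and cartilage markers 2 were higher and 3 lower, with summed intensities of 11311 and 11553 in anterior and 9854 and 10108 in posterior endoderm. The collagen IX alpha 2 chain alone gave 7727 and 7906 of the anterior and 4930 and 5318 of the posterior sums. Without that chain the sum was lower in anterior endoderm. Of 4 blood markers 2 were lower and 0 higher, with 8033 and 8268 against 9365 and 10529. Of 7 neural markers 2 were higher and 2 lower, with 16788 and 16623 against 26291 and 27735, and peripherin, 1 of the 2 higher, stayed near background in both regions. Complexin 2 of synaptic vesicle release was the other higher one (1.32 and 1.24), and a name cut to "neurofilame" was lower (-1.20, 4 of 4 probes). The name "neurofilame" alone gave 9185 and 9003 of the anterior and 20311 and 21372 of the posterior neural sums. Without that name the neural sum was higher in anterior endoderm. In the broader group of neuronal and hormone proteins 6 of 18 names were higher and 5 lower (median 0.11), and somatostatin, a hormone of gut and pancreas, was higher (0.72 and 0.61). Of 8 red blood cell proteins 3 were lower and 1 higher, with a median of 0.00. That median was -0.34 with the mean over a name's probes.

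The hatching enzymes, which digest the egg envelope, had 2 names lower and 1 higher out of 3, and summed intensities of 11049 and 10977 in anterior and 17266 and 16462 in posterior endoderm. The 5 probes of the UVS.2 name ran from -3.40 to 0.07, and 4 were lower. The brightest gave -1.36 and -1.25, and the lowest was at least 10.6-fold lower. Under a second annotation of UVS.2 both probes were higher (0.27 and 0.40), so probes named for this enzyme disagreed in direction.

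The labelled tissue was checked against its markers, in lists whose members were corrected after the values had been seen. Of 6 endoderm markers 1 was higher and 3 lower, and none was below the background limit in both regions, with summed intensities of 14640 and 11963 in anterior and 26762 and 20332 in posterior endoderm. Of 5 markers of anterior organs 4 were higher and 1 lower (median 0.40), with 41858 and 43884 in anterior and 31989 and 34445 in posterior endoderm. For the liver that list holds transferrins and fibrinogen and none of the complement, apolipoprotein or metabolic names described above as lower. Of 10 posterior gut markers 8 were lower and 1 higher (median -0.75), with 9199 and 12010 against 13608 and 17746. That list holds HoxB9 and villin each under more than 1 annotation. It also holds a fatty acid-binding protein named for heart and not for intestine (-0.64), whose posterior intensity was 4560 on array A and 7825 on array B.

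Genes of RNA handling and growth had small ratios. Splicing and RNA-binding proteins were higher for 32 of 63 names (50.8%, against 30.2% of all names) and lower for 15, with a median of 0.18. Without array A 19 were higher and 11 lower. Cytosolic ribosomal proteins were higher for 17 of 58 and lower for 8 (median 0.08), where 30.2% of all names were higher and 35.3% lower. Ribosomal protein L6 was 1.67-fold higher by its brightest probe (4 of 4 probes higher), which had saturated anterior pixels on both arrays. Its probes with no saturated pixel had 0.30 and 0.50. Ribosomal protein S8 had -0.36. The ribosomal calls depended on the scaling. With median centring, which does not adjust for brightness, 45 ribosomal names were higher and 0 lower (median 0.49), and 39 splicing names were higher and 9 lower. Without either array alone 9 ribosomal names were higher. Of 25 translation factors and tRNA synthetases 9 were higher and 5 lower, with a median of -0.01 that turned to 0.14 with median centring. Histone and chromatin names were higher for 15 of 32 and lower for 6 (median 0.17). A high mobility group isotype had 1.26 and 1.45, whereas polyhomeotic, a Polycomb protein, had -2.02 on array A and -0.65 on array B. Cell cycle and replication names went both ways, 17 of 48 higher and 13 lower, with thymidylate synthase of DNA precursor synthesis at 0.88 (7 of 7 probes) and cyclin B at least 2.26-fold lower.

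Chaperones were split into names that stand for the endoplasmic reticulum and all other names. Some of the other names give no place in the cell. Of 29 names 14 were higher and 8 lower (median 0.15). Of 10 names of chaperones of the endoplasmic reticulum 8 were lower and 2 higher, with a median of -0.55. Of the other 19 names 12 were higher and 0 lower, with a median of 0.31. The division was drawn after the values had been seen, and a secreted cyclophilin-like name (-0.16, not past the threshold) stayed among the 19. With median centring 5 of the 10 were lower and 17 of the 19 higher. Calnexin, which folds glycoproteins, had -0.74 and -0.75 with 9 of 9 probes lower, and endoplasmin and BiP had -0.73. The collagen chaperone named as the 47 kDa heat shock protein (0.38) and protein disulfide isomerase A5 (0.29) were the 2 higher ones. The mitochondrial chaperonin cpn60 had 0.71 and 0.77 with 3 of 3 probes higher.

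Mitochondrial respiration had 19 of 47 names higher and 10 lower (median 0.11). A malate dehydrogenase name was at least 1.76-fold higher, and a name cut to "[pyruvate dehydrogenase" gave 1.41 and 1.38. A cytochrome-c oxidase name gave -1.38 and -1.06, although 2 of its 4 probes were higher. Lysosomal proteins were lower for 8 of 13 names and higher for 2 (median -0.34). Granulin had -1.02, and the membrane protein CD63 had -0.92 (6 of 7 probes) and, under a second annotation, -0.59. The 1 name with the word cathepsin, prepro-cathepsin C, did not pass and stayed near background in both regions. Glutathione and detoxification names were lower for 15 of 29 and higher for 8 (median -0.17), among them heme oxygenase, which breaks down heme (-1.11 and -1.30), and a name cut to "glutathione s" (-1.56, 3 of 3 probes). Proteasome and ubiquitin names were near balance with 15 of 42 higher and 16 lower, as were actin cytoskeleton names with 6 of 30 higher and 7 lower (median -0.04, which turned to 0.12 with median centring). Outside the groups, the naming rule took among others the UDP-N-acetylglucosamine transporter at 0.90 (2 of 2 probes) and the transferase that puts this sugar on proteins at 0.76 (3 of 3 probes).

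**Figure D3:**
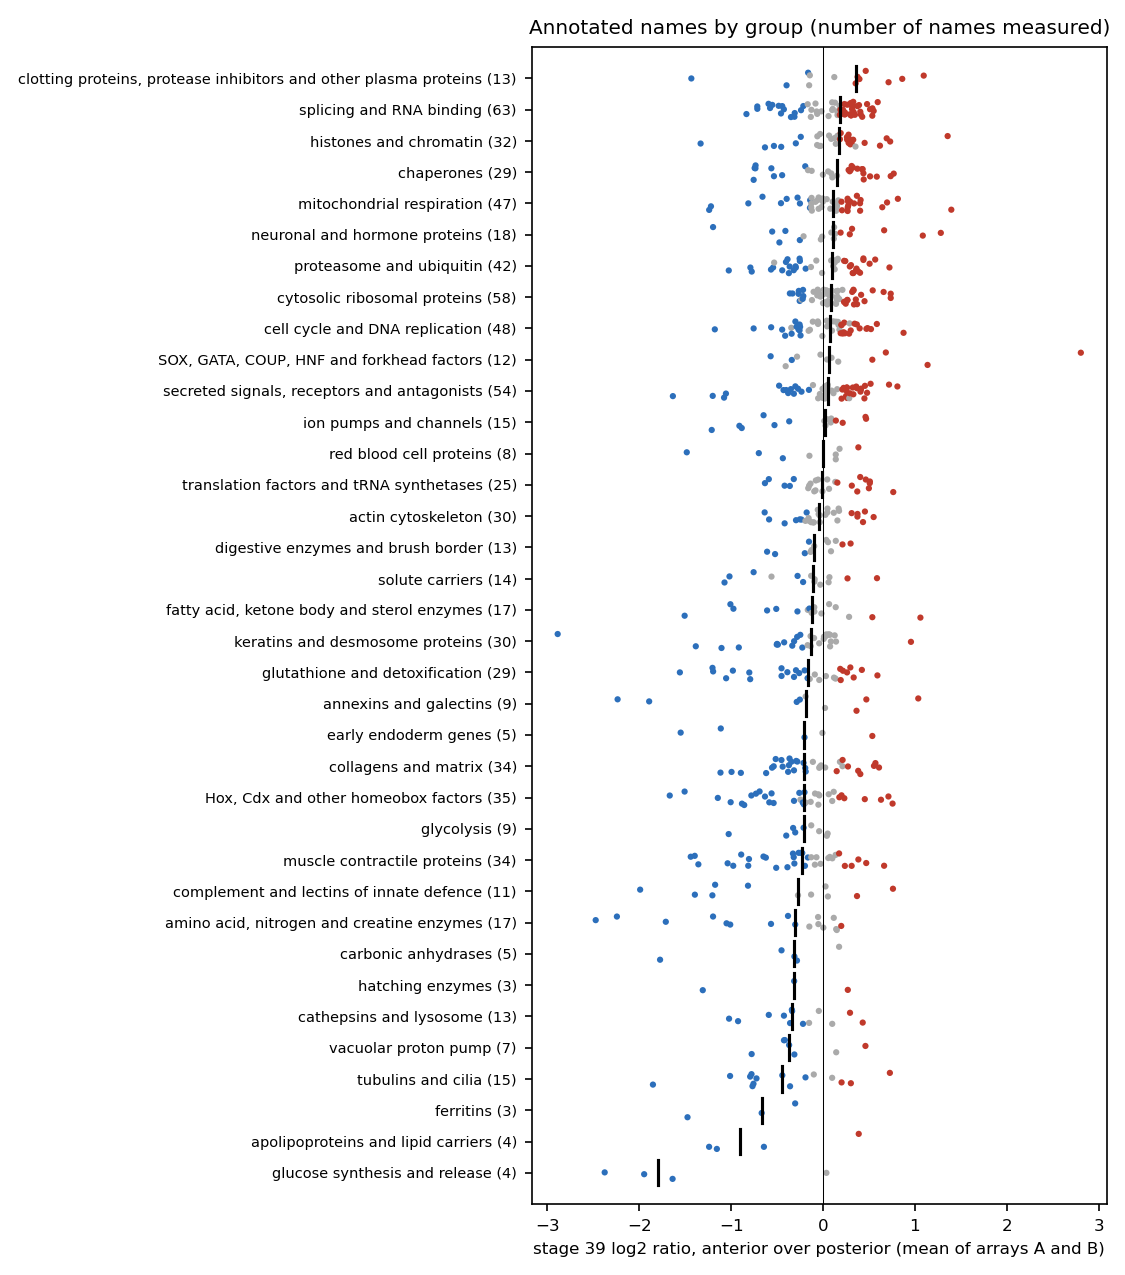
Stage 39 log2 ratio of anterior over posterior signal (x axis, mean of both arrays) for every name of the 36 groups, with 1 point per name and a bar at the group's median. Red points passed the threshold as higher, blue as lower and grey did not pass. Enzymes of glucose synthesis have the lowest median (-1.79), and plasma proteins outside complement a positive one (0.36).

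Some names had probes that went in opposite directions, and these may stand for different subunits or genes under 1 cut-short name. The widest gap was that of phosphoenolpyruvate carboxykinase, whose 3 probes gave -1.95, -1.43 and 0.89. Of 8 probes of the transcription factor BTF3a, 5 were higher, up to 0.48, and 1 was lower at -1.72. Reticulon 3 had probes at -1.47 and 0.60, TI-1 at -1.47 and 0.42, a nonhistone chromosomal protein at -1.56 and 0.33, and a U1 small nuclear ribonucleoprotein at -1.24 and 0.63. Each of these names had at least 1 probe past the threshold in each direction, so the value of the brightest probe does not stand for the others.

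The stage 39 ratio was then tested against that of stages 30 and 46 in the same fit. These 2 contrasts share the stage 39 arrays. The fixed dye orientation is common to the stages. Saturated spots numbered 1517 and 797 on the stage 30 arrays, 105 and 87 at stage 39, and 37 and 47 at stage 46. Saturation of single names was examined at stage 39 only, and its part in the ratios of stage 30 was not tested. Against stage 30, 1416 of 2338 names differed (60.6%), and against stage 46, 1200 of 2301 (52.2%). By over 1 log2 unit in both contrasts, 47 names were lower at stage 39 than at both other stages and 4 were higher. Endodermin had mean ratios of 0.57, -1.55 and 0.36 at stages 30, 39 and 46, so that its ratio was negative only at stage 39 of the stages measured. Complement C3 had -0.26, -1.99 (saturated, as above) and -0.62, guanidinoacetate N-methyltransferase -0.72, -2.24 and -0.14, and the C3b/C4b inactivator 0.35, -1.39 and 0.50. Factor XIII B chain had -0.29, -1.43 and 2.01 and myosin L2 regulatory light chain -0.06, -1.71 and 1.41. The 4 higher names were a match to an AML1-EVI-1 fusion gene (0.39, 2.60 and 1.17), complexin 2 (-0.19, 1.28 and 0.02), the high mobility group isotype (-0.40, 1.36 and 0.32) and the epithelial glycoprotein antigen (-0.06, 0.96 and -0.09).

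**Figure D4:**
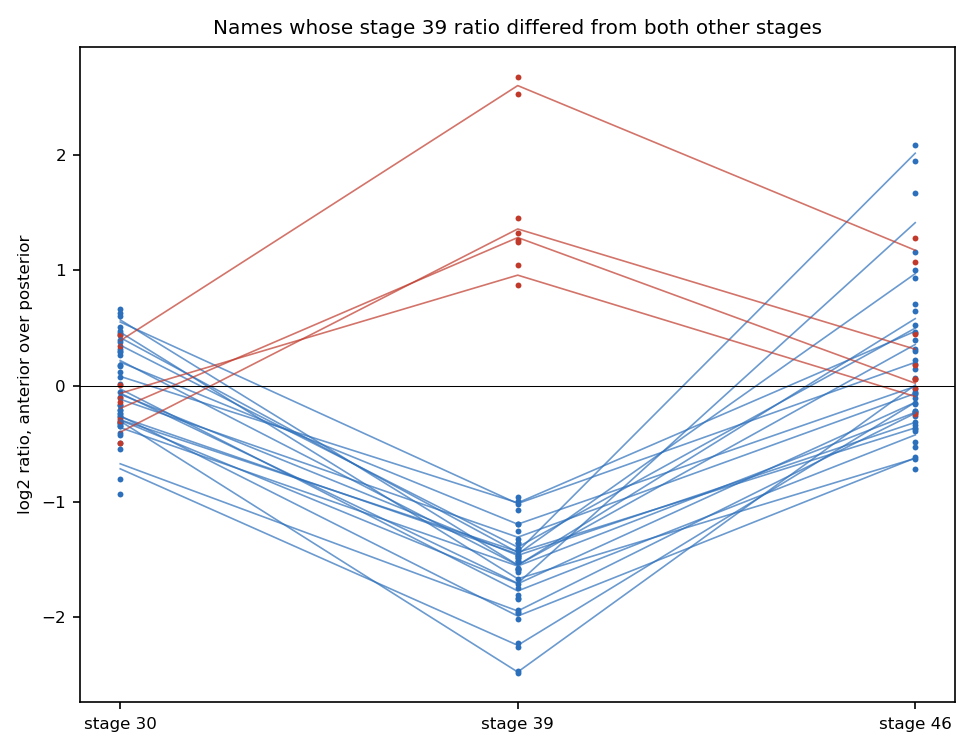
Log2 ratio of anterior over posterior signal at stages 30, 39 and 46 for the names whose stage 39 ratio differed from both other stages and that the text gives values for. Points are single arrays and lines join the stage means, with names lower at stage 39 in blue and higher in red. The 4 red names peak at stage 39, as their selection required.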

How the data were processed

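Each array compared RNA of the 2 regions, with 2 arrays per stage. Per the labels, total RNA was extracted with TRIZOL and reverse transcribed with dye-labelled dUTP, and the scanner gain was set slide by slide. The deposited scanner files gave linear intensity values per spot and dye (median pixel and local background, with its SD), neither subtracted nor normalised. The deposited files also held the percent of saturated pixels and a score marking spots not found. A ratio for every clone and stage, from GeneData Refiner and Expressionist per the labels, was also deposited by the authors (software versions: not given in the sources used here). It was used as an alternative, since its r with the ratios computed here was 0.869 after loess and 0.959 before it.

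Ratios were computed in R 4.3.3 with limma 3.58.1 and data.table (version 1.17.8), and summarised in Python with pandas. Background was corrected with normexp (offset 50) and ratios with loess in each array (span 0.3), where the 239 control spots and spots not found had no weight and were then left out. Tested were probes that exceeded 2 background SDs in either channel on 2 or more of 6 arrays, with values on both stage 39 arrays. All 6 arrays entered 1 fit with a mean per stage, empirical Bayes moderation and two-sided tests. P-values were adjusted by Benjamini-Hochberg over all probes tested, with a threshold of 0.05. Of the 8828 probes called, 2142 lacked a value on an array of another stage. Where 1 region was dim on both arrays the ratio is a lower bound (at least that fold), and where both regions were dim no fold is given. A spot with saturated pixels gives no such bound, since ratios use the median pixel of a spot. The steps were tested on simulated data.

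The naming rule took, among informative annotated names, the 15 each way with the largest ratio among those whose probes all passed, up to 4 per group and 2 against its direction, the 6 with the most opposed probes, up to 6 each way that differed from both other stages, and the cell type markers. That gave 222 names, and values outside the rule were chosen after they were seen. Uninformative and non-vertebrate names were filtered out, by words added in part once rankings were known. The groups, lists and rules were chosen with earlier results of these data known, and the groups are described by counts and medians with no test. The marker and sublist members were corrected after the values were seen. For 1 gene among those the rule named, no result is reported here. No sequences or genome positions came with the probes. Alternatives tried were other background and normalisation methods, filters, moderation, samples in the fit, leaving out each array, and the mean over a name's probes.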

Additional observations from a re-analysis of the deposited data

Results flagged for a closer look

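The stage 39 ratio of 24 names differed from that of both other stages by a test of each difference (limma contrasts, adjusted p under the threshold) and by over 1 log2 unit in the same direction, within the set of names the text reports. Of these, 20 were lower at stage 39. Ratios are those of a name's brightest probe, and at stage 39 the posterior spots of "glycine am" and complement C3 had saturated pixels. Saturation of single names at the other stages was not examined. The creatine and nitrogen names were "glycine am" (-2.47), guanidinoacetate N-methyltransferase (-2.24) and a creatine kinase (-1.71). The secreted names were complement C3 (-1.99), factor XIII B chain (-1.43) and the C3b/C4b inactivator (-1.39). Among enzymes and transporters were phosphoenolpyruvate carboxykinase (-1.95, with another probe at 0.89), carbonic anhydrase XIV (-1.77), "glutathione s" (-1.56), "ca2+-atpas" (-1.55), cytochrome P450 2C41 (-1.20) and a UDP-galactose transporter-related name (-1.02). The muscle names were myosin L2 regulatory light chain (-1.71) and fast troponin I (-1.44). The others were Hox4e (-1.67), endodermin (-1.55), UVS.2 (-1.31), tektin (-1.01), and 2 matches whose function in a frog is not given, "t3dh gene p" (-1.47) and "ribosome as" (-1.45). The 4 that were higher were the AML1-EVI-1 match (2.60), the high mobility group isotype (1.36), complexin 2 (1.28) and the epithelial glycoprotein antigen (0.96).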

How the results depend on the processing

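No paired analysis was possible because each stage is 1 labelled sample, and no label ties array A or B of 1 stage to the same letter of another. Within a stage, the ratio itself sets the regions of 1 array against each other. The count of probes over 2-fold higher, 69, became 41 without background subtraction, 143 with plain subtraction, 133 with median centring and 37 with both channels well above background. That last filter left fewer probes tested, with 5749 past the threshold in place of 8828 and 357 over 2-fold lower in place of 575. Probes differing from both other stages numbered 3621, with 3218 when saturated spots were left out and 2379 without stage 39 array A. Leaving out each array gave 5968 to 9513 probes past the threshold, 68 to 100 over 2-fold higher, 523 to 676 over 2-fold lower and 2379 to 3989 differing from both stages, where a lone array was assumed to vary like the other stages. The share of higher among called probes moved by under 10 percentage points in all of these settings.

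Single names that changed sign did so as follows, and the cause was not tested. With median centring these were ribosomal protein S8 (0.14), a second ribosomal name (0.028), amylase (0.14), alpha skeletal actin (0.36), troponin C (-0.051), MyoD1 (-0.072) and collagen IX alpha 1 (-0.020). Without background subtraction cerberus had 0.0024, with print-tip loess an epidermal keratin had -0.071 and erythroid ankyrin -0.081. Without array A or B of stage 39, a hepatocyte nuclear factor ran from -0.57 to 0.0061, cerberus from -0.13 to 0.12 and NCAM from -0.075 to 0.030. With the mean over probes, serine dehydratase had -0.16, the second villin spelling -0.16, pendrin -0.037, monocarboxylate transporter 4 -0.36, S8 0.010, the second ribosomal name 0.12, nonmuscle myosin II -0.034 and a troponin T -0.048. In the authors' deposited table, pentraxin fusion protein had -0.040, monocarboxylate transporter 4 -0.078, galectin-9 -0.075, alpha-galactosidase -0.047 and collagen IX alpha 1 -0.33. Group medians moved by more than their arrays differed for 33 of 36 groups in the authors' table, 25 with median centring and 20 with the mean over probes. The ratios in the authors' table had a median of 0.80 before the log, so its names and groups lay lower as a whole. With saturated spots left out, complement C3, "glycine am", both ribosomal L6 names and a high mobility group name had no value. Signal over background limits the folds of dim probes, such as those of the Hox factors.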
